A study of Mus musculus with 36 samples.

Results

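Wild-type nephron progenitor cells (NPCs) cultured at both ends of a Wnt pathway dose series were compared here. NPCs are the mesenchymal progenitors of the nephron in the fetal kidney. The compared libraries were 3 of cells with no CHIR (0 µM) and 3 of cells in high CHIR (5 µM), 6 of the 36 libraries in the series. A further 3 wild-type libraries from low CHIR (1.25 µM) helped to estimate the spread and show where the intermediate dose lay, and they were kept out of the contrast itself. CHIR99021 (CHIR) is a small molecule that inhibits the kinase GSK3β. All of these cells were primary NPCs of wild-type genotype from the kidneys of E16.5 mouse embryos, without regard to the sex of the embryo. Swiss Webster or C57Bl/6 mice were used in the study, and the labels do not say which gave these libraries. The cells were enriched by removing other cell types with magnetic beads, kept in the defined medium NPEM, seeded in low CHIR and then held for a day in the stated dose.

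In the absence of a Wnt signal GSK3β marks β-catenin for destruction. When the kinase is blocked, β-catenin accumulates, enters the nucleus and joins the DNA-binding factors of the Tcf and Lef family at their target genes. In the fetal kidney, progenitors that hold *Six2* and *Cited1* renew themselves in the cap around the ureteric tip, and a stronger canonical Wnt signal moves them towards the renal vesicle, an epithelial structure that expresses *Wnt4*, *Lef1*, *Jag1*, *Lhx1* and *Pax8*. Between no and high CHIR, most of the progenitor genes listed here fell, most of the early nephron and Wnt feedback genes rose, and part of the epithelial junction genes rose and part of the mesenchymal genes fell. Genes of the *Hoxc* cluster also fell, and those of the *Hoxb* cluster in part rose.

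Values are normalized counts, that is reads on a gene divided by 1 size factor per library. The reads behind them, recovered as whole numbers, came to between 13651129 and 76071568 on genes in the no CHIR libraries and to between 14345780 and 23542717 in the high CHIR libraries. A log2 fold change here is the difference of the mean log2(normalized count + 1), high minus no CHIR and comes out too small for genes of few counts. The test covered the 17411 genes that averaged 10 or more such counts across the 9 wild-type libraries. A gene was called, and is said to have risen or fallen, at a limma adjusted p under 0.05 with a log2 fold change of at least 1 in size. With 3 libraries a side, 0.1 is the smallest two-sided p of an exact permutation, and the calls therefore come from the moderated model of all genes. The labels do not say whether replicates were separate isolations, so the p-values measure the spread between these libraries, which may be technical. The RNA is from bulk cultures, in which fewer cells of a type and less RNA per cell cannot be told apart.

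One library stood apart from its group. Among the 13256 genes averaging 50 or more counts, high CHIR replicate 3 lay 4-fold or more from replicate 1 at 598 genes (4.51%) and from replicate 2 at 711 (5.36%). The other 2 high CHIR libraries lay as far from each other at 74 genes (0.558%). In a principal component analysis of the 1000 most variable genes, the first component (65.3% of the variance) separated all 3 high CHIR libraries from the rest. On the second (17.5%), replicate 3 lay at 63.8, and the other 2 high CHIR libraries lay at -30.8 and -40.3. Counts by list are therefore also given without this library where they change, and so is a log2 fold change that moves by 1.5-fold or more or loses its call.

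The genes furthest above the other high CHIR libraries in replicate 3 included *Mixl1*, a homeobox factor of early mesoderm, with 7899 normalized counts against 2.24 and 1.4. *Fgf3*, a fibroblast growth factor, held 1227 against 0 and 1.4. *Col22a1*, a collagen, held 3413 against 2.24 and 4.19. Chosen after its values were seen, *T* (Brachyury), a T-box factor of the primitive streak, was at 436 in this library and at 0 in the other 2. Lowest in replicate 3 were nephron factors: *Pax8* with 94.4 against 7800.4 and 7498, *Lhx1* with 104 against 5949 and 6706, and *Sim1* with 10.3 against 747 and 865. All 3 high CHIR libraries were alike in the loss of the progenitor factor *Six2* and in the rise of *Krt39*, described below. *Krt39* was named by a rule that asked for no overlap between the groups, so its rise in replicate 3 was set by that choice.

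**Figure D1:**
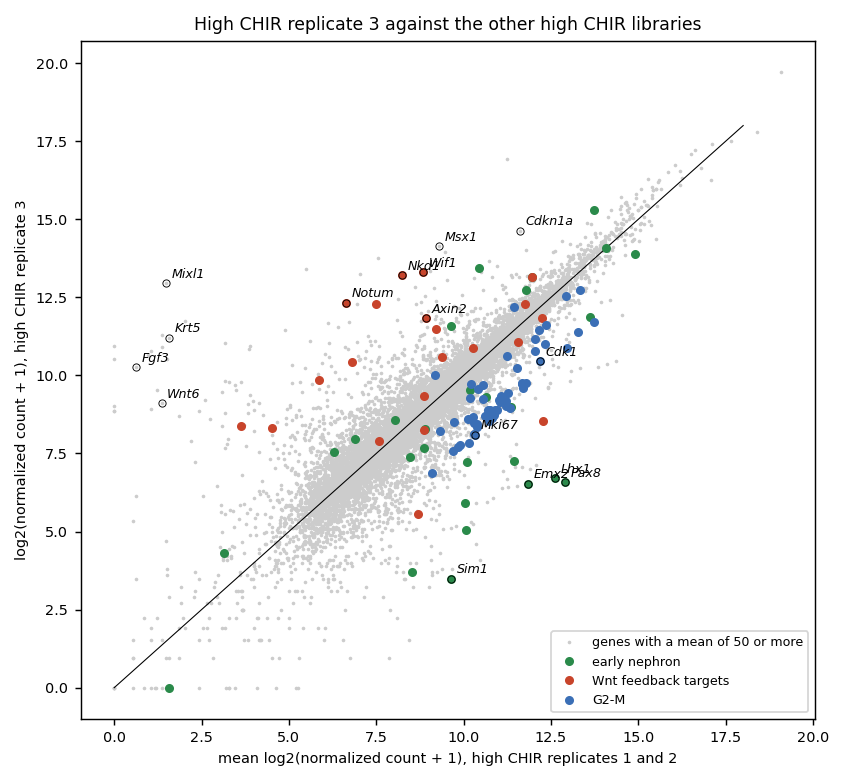
Level of each gene averaging 50 or more counts in high CHIR replicate 3 (vertical, log2 of normalized count + 1) against the mean of high CHIR replicates 1 and 2 (horizontal, same scale), with the line of equal values. Tested members of the early nephron (green), Wnt feedback (red) and G2-M (blue) lists are coloured: *Pax8* and *Lhx1* lay far below the line, *Mixl1* and *Notum* far above it, and most G2-M genes below it.

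By gene list, the departures of replicate 3 went different ways. Of the 54 genes tested that are expressed in the G2 and M phases of the cell cycle, 41 (75.9%) were at least 2-fold lower in replicate 3 than in both other high CHIR libraries and 0 were as much higher, beside 7.67% and 6.04% of all genes tested. Of 28 early nephron genes, 13 (46.4%) were lower by that measure and 5 higher. Of 21 Wnt feedback genes, 12 (57.1%) were higher and 2 lower. *Cdkn1a*, the cell cycle inhibitor p21, held 25493 normalized counts against 4081 and 2418, and *Cdkn1c*, the inhibitor p57, 4964 against 387 and 408. What set this library apart was not tested.

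Across all genes, 1212 of 17411 (6.96%) rose and 1450 (8.33%) fell, together 15.3%. The median log2 fold change of all genes tested was 0.02. In 1187 of the genes that rose and 1435 of those that fell the 3 high CHIR libraries did not overlap with the 3 no CHIR libraries, which was so of 39.9% of all genes tested. Without high CHIR replicate 3, 1322 genes (7.59%) rose and 1568 (9.01%) fell, of which 1035 and 1251 were the same genes as with it. Changes were large: 597 of the genes that rose and 740 of those that fell changed by a log2 of 2 or more, and 86 and 85 by a log2 of 5 or more. On the recovered reads, edgeR called 1304 genes higher and 1435 lower, and DESeq2 1415 and 1564. DESeq2 gave no adjusted p for some genes, among them *Wnt4*, *Notum*, *Nkd1*, *Wif1*, *Rnf43* and *Fzd10*, so it could not call them. Of the Wnt feedback list, described below, it called 12 higher, against 15 by limma.

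**Figure D2:**
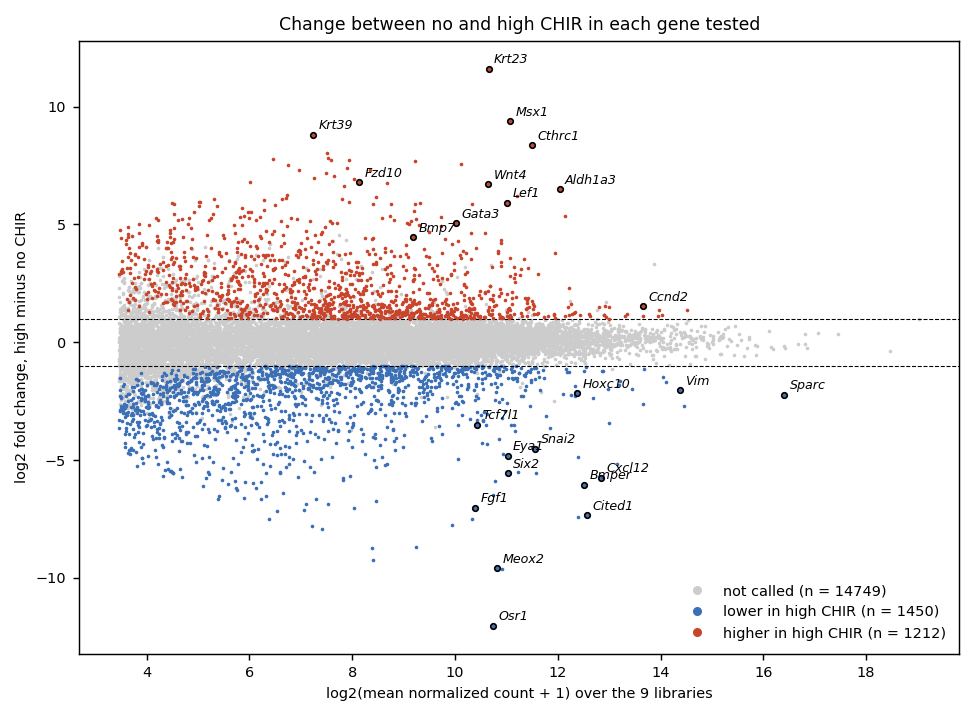
Log2 fold change, high minus no CHIR (vertical), against the log2 of the mean normalized count + 1 over the 9 wild-type libraries (horizontal) for the 17411 genes tested. Genes that rose are red (1212), genes that fell blue (1450), others grey, dashed lines mark a log2 of 1 in size, and *Krt23* and *Osr1* lie at the extremes.

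Low CHIR lay between both ends for most of these genes. On the log2 scale, the low CHIR mean was between no and high CHIR for 940 of the 1212 genes that rose, and for 1267 of the 1450 that fell. The median gene that rose had covered 29.6% of its change by low CHIR (quartiles 8.00% and 57.2%), and the median gene that fell 40.0% (quartiles 21.2% and 60.1%). In 209 of the genes that rose, low CHIR was at or below no CHIR, and in 63 it was at or above high CHIR. These positions carry no test, since the end groups chose the genes.

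The largest rises began from next to no reads. *Krt23*, a type I keratin (chr11:99477974-99493137, minus strand, GRCm38), held 0, 0 and 1.12 normalized counts in the 3 no CHIR libraries and 2453, 2948 and 9067 in the high CHIR libraries. Its ratio of reads for equal depth was 28756 (95% interval 5160 to 1135886, counting error only, from 1 read with no CHIR; limma adjusted p = 1.7e-06). *Krt39* (chr11:99514114-99521338, minus strand), another keratin of the same cluster on that chromosome, was at 0 in all no CHIR libraries and at 542, 405 and 405 in high CHIR, at least 826-fold higher when 3 reads over the no CHIR group are taken as the floor. Both keratins were still near 0 in low CHIR, at 9.2, 4.75 and 3.59 for *Krt23* and 0, 1.9 and 0 for *Krt39*.

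Among the other largest rises, *Cthrc1* (chr15:39076932-39087121), a secreted protein of the noncanonical Wnt pathway, went from 41, 16.1 and 23.5 to 9992, 7739.9 and 7937 (log2 fold change 8.35 ± 0.41 (SE); limma adjusted p = 1.8e-06). *Msx1* (chr5:37820485-37824583), a homeobox factor often placed under BMP and Wnt signals, went from 0.765, 1.46 and 4.47 to 978, 403 and 18058 (9.39 ± 1.13 (SE); limma adjusted p = 3.1e-04), and its rise was 7.77 without replicate 3. *Bcl11a*, a zinc finger repressor, went from 0.765, 1.46 and 0 to 184, 209 and 1252 (7.81 ± 0.82 (SE), 6.92 without replicate 3). The fatty acid receptor gene *Ffar4* held 0, 2.93 and 0 with no CHIR and 143, 148 and 1767 in high CHIR. *Mab21l1*, *Prss56*, *Notum* and *Sp5* completed the named protein-coding genes of this group. In *Prss56* (1.27, 1.46 and 3.35 against 175, 97.7 and 9716) and *Notum*, replicate 3 was far above the other high CHIR libraries. In *Krt39* and *Cthrc1* the high CHIR libraries lay close together.

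Promoters of 3 of these genes that rose and 1 that fell are shown because each holds a short word bound by Tcf and Lef factors. The words searched were CTTTGAA and CTTTGAT on both strands (TTCAAAG and ATCAAAG when read on the shown strand), in the 250 bases before the RefSeq transcript start in GRCm38.p6. Each is written 5′ to 3′ along its gene, in lower case with the word in capitals.
Sp5: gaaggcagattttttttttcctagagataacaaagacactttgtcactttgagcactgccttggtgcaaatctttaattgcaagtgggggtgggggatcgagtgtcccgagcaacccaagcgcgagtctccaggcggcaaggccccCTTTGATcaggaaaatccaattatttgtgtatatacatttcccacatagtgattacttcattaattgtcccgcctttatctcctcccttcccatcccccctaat
Krt39: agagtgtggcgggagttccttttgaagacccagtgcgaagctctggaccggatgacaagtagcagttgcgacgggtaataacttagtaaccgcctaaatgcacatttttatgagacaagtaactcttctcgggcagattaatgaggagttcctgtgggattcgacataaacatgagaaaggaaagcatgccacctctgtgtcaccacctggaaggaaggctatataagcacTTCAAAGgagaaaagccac
Prss56: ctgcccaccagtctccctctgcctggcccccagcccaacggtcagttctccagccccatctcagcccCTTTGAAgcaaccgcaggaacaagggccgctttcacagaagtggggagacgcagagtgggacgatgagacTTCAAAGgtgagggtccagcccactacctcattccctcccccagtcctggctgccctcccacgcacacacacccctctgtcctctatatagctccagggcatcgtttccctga
Cxcl12: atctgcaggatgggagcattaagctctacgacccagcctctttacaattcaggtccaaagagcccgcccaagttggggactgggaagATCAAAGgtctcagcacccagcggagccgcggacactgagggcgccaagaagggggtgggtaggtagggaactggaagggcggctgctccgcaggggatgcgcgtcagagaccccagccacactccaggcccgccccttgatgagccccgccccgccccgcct
They lie at chr2:70474673-70474922 (plus strand) for *Sp5*, chr11:99521339-99521588 (minus) for *Krt39*, chr1:87183064-87183313 (plus) for *Prss56* and chr6:117168285-117168534 (plus) for *Cxcl12*. In *Sp5* the word begins 104 bases before the start, in *Krt39* 19 bases before it.

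A word of this kind stood in 7.48% of all 32851 promoters of this length in the table. These promoters belong to 27025 symbols, and the counts that follow are of genes. A gene was counted as holding the word if any promoter of its symbol did. Of the 17411 genes tested, 10823 had a promoter there, and 6.40% of those held the word. The share was 8.43% among genes that rose (73 of 866), 11.9% among those that rose by a log2 of at least 3 (28 of 235) and 18.2% at a log2 of at least 5 (12 of 66). It was 6.73% among genes that fell (64 of 951), 5.70% at a fall of at least 3 (13 of 228) and 13% at a fall of at least 5 (7 of 54). Of 14 Wnt feedback genes with a promoter in the table, 3 held the word (*Sp5*, *Tnfrsf19* and *Dkk1*, the last of which was not called). The word was held by 1 of 19 early nephron genes (5.26%) and by 0 of 11 of the self-renewal list. Of 29 genes with the largest changes and a promoter in the table, 4 held it (13.8%), and these are the 4 shown. These shares describe letters in a window and carry no test.

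The largest fall was that of *Osr1* (chr12:9570116-9581500, GRCm38), a zinc finger factor of the earliest kidney mesoderm and of NPCs. It held 3563, 4469 and 4627 normalized counts with no CHIR and was at 0 in all 3 high CHIR libraries, at least 3768-fold lower with 3 reads over the group as the floor (limma adjusted p = 1.7e-08). *Hpgd*, the enzyme that breaks down prostaglandins, went from 4295, 3368 and 6669.9 to 2.24, 1.4 and 25.2 (log2 fold change -9.61 ± 0.78 (SE), -10.69 without replicate 3; limma adjusted p = 3.2e-05). *Fam19a4*, a secreted chemokine-like protein, held 1065, 858 and 992 with no CHIR and 1.12, 0 and 0.935 in high CHIR. *Ch25h*, the cholesterol 25-hydroxylase, went from 2798, 2569 and 3352 to 20.2, 11.2 and 15 (-7.49 ± 0.24 (SE)), and *Cbr2*, a carbonyl reductase, from 1817, 2601 and 2903 to 13.4, 4.19 and 16.8 (-7.76 ± 0.43 (SE)). *Il33*, a nuclear cytokine, went from 9163, 7443 and 9480.5 to 118, 64.2 and 15 (-7.44 ± 0.65 (SE), -6.62 without replicate 3). *Nxph1*, *Slc26a7* and *Ttc22* ended within 6 normalized counts of 0 in each high CHIR library.

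By the number of normalized counts gained or lost, the order was different. *Sparc*, a secreted matrix glycoprotein, lost the most counts, from 139428, 151174 and 146105 to 26588, 20558 and 54057 (log2 fold change -2.23 ± 0.29 (SE); limma adjusted p = 4.8e-04). *Cxcl12*, the chemokine that signals through *Cxcr4*, went from 18058, 15709.5 and 18596 to 112, 137 and 2167 (-5.75 ± 0.87 (SE), -7.12 without replicate 3; limma adjusted p = 0.0012), with replicate 3 far above the other 2. *Mest*, an imprinted gene, went from 41033, 35415 and 51780.0 to 15030.4, 14207 and 1247 (-2.71 ± 0.80 (SE), -1.53 without replicate 3). *Anxa2*, a membrane annexin, and *Sdc4*, a heparan sulfate carrier, also fell, *Anxa2* from 18858, 20813 and 23037 to 6159, 4831 and 4757 and *Sdc4* from 24642, 20231 and 24879 to 4585, 4457 and 2560.1. On the other side, *Aldh1a3*, an enzyme that makes retinoic acid, gained from 94.3, 99.5 and 57 to 19410.1, 16218 and 1321 (limma adjusted p = 4.0e-04). *Lrp4*, a receptor that restrains Wnt signals, gained from 488, 187 and 194 to 14778, 16778 and 5201 (5.38 ± 0.55 (SE); limma adjusted p = 1.2e-04). *Pkm*, *Sox11*, *Ccnd2*, *Itm2b*, *Canx* and *Gja1* also gained many counts with log2 fold changes between 1.12 and 1.53. Of these, *Itm2b* (0.59), *Canx* (0.98) and *Gja1* (0.99) were under the log2 threshold without replicate 3.

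Of 18 genes of progenitor self-renewal, 12 (66.7%) fell and 1 (5.56%) rose, beside 8.33% and 6.96% of all genes tested. The median of the list was -3.69, and the count was 13 lower and 2 higher without replicate 3. The study named several of these genes from these libraries, so the count is no independent evidence of their direction. *Six2* (chr17:85684277-85688274, minus strand), the homeobox factor that keeps NPCs undifferentiated, held 2923, 3545 and 3295 normalized counts with no CHIR and 60.5, 79.6 and 65.4 in high CHIR (log2 fold change -5.55 ± 0.15 (SE); limma adjusted p = 2.4e-08). *Cited1*, a transcription cofactor of the most naive progenitors, went from 13094, 16798 and 16526 to 77.3, 103 and 102 (-7.35 ± 0.32 (SE); limma adjusted p = 6.8e-07). *Eya1*, a coactivator that works with *Six2*, went from 2690.5, 2466 and 2609 to 84, 86.5 and 103 (-4.82 ± 0.13 (SE); limma adjusted p = 2.6e-08). In each of them the 3 libraries of a group lay close together, replicate 3 of high CHIR included.

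The homeobox genes *Meox1* and *Meox2* held few counts in high CHIR: *Meox1* went from 266, 71.7 and 207 to 1.12, 1.4 and 0 and *Meox2* from 3665, 3909 and 3821 to 4.48, 20.9 and 0. *Wt1*, the zinc finger factor of NPCs and podocytes, went from 1033, 1307 and 1077 to 99.7, 89.3 and 49.5 (-3.88 ± 0.25 (SE); limma adjusted p = 9.5e-06). *Tcf7l1*, the Tcf factor that mostly represses Wnt targets, went from 2584, 2294 and 2325 to 272, 198 and 174 (-3.50 ± 0.17 (SE); limma adjusted p = 1.8e-06). *Rspo1*, a secreted amplifier of Wnt signals, also fell (log2 -3.92, -4.56 without replicate 3), as did *Tmem100* (-4.18), *Crym*, a thyroid hormone binding protein (-3.12, -4.09 without replicate 3), and *Itga8*, the integrin chain that receives nephronectin (-1.89, -1.04 without replicate 3). *Crym* and *Itga8* had one uneven library: high CHIR replicate 3 held 387 of *Crym* against 56 and 44.7, and 142 of *Itga8* against 1066 and 674.

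Other progenitor genes were not called lower. *Cited2*, a relative of *Cited1*, rose from 603, 604 and 456 to 1211, 1498 and 1306 (1.28 ± 0.17 (SE); limma adjusted p = 5.3e-04). *Sall1*, a zinc finger factor needed for the metanephros, was at 3000.2, 2291 and 2751 with no and 6131, 6844 and 3197 with high CHIR (0.94 ± 0.25 (SE); limma adjusted p = 0.021), under the log2 threshold, and passed it (1.28) without replicate 3. *Gdnf*, the growth factor that draws the ureteric bud, was at 94.8, 148 and 152 with no and 50.4, 93.5 and 94.4 with high CHIR (log2 -0.74; limma adjusted p = 0.12). *Hoxa11* was at 268, 362 and 345 with no and 366, 369.9 and 288 with high CHIR (log2 0.07; limma adjusted p = 0.82). By low CHIR, the mean of *Six2* had covered 2.75% of the way from no to high on the log2 scale and that of *Cited1* 35.5%, while *Eya1* held more in low CHIR (3317, 3478 and 3904) than at either end.

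**Figure D3:**
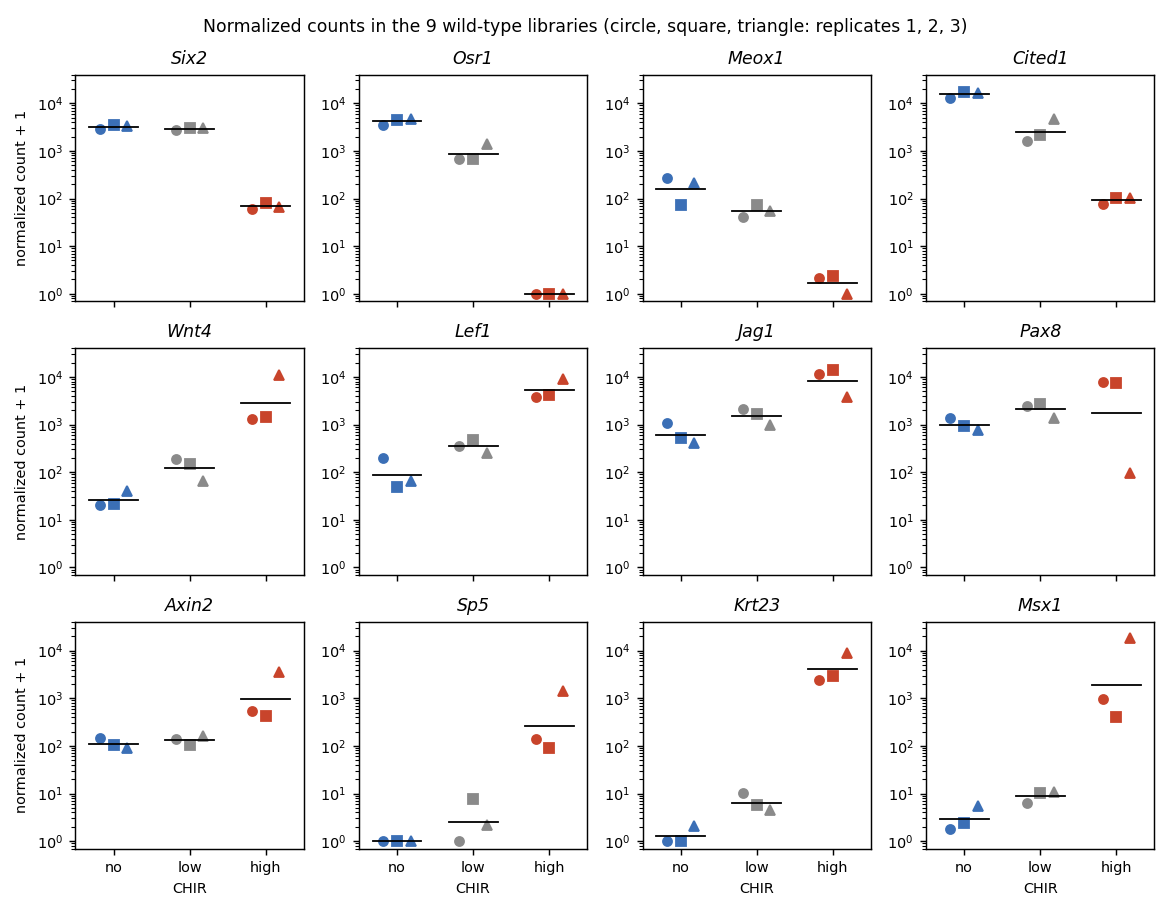
Normalized count + 1 (log axis) of 12 genes in the 3 no (blue), 3 low (grey) and 3 high CHIR (red) libraries, with a line at the mean of the logs. Circle, square and triangle stand for replicates 1, 2 and 3, and the triangle of high CHIR lies far below the others in *Pax8* and above them in *Wnt4*, *Axin2*, *Sp5* and *Msx1*.

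Of 28 early nephron genes tested, 17 (60.7%) rose and 0 fell, beside 6.96% and 8.33% of all genes, and the list median was 2.60. Without replicate 3, 23 rose and 1 fell. Here too the study named many members from these libraries. *Wnt4* (chr4:137277489-137299726), an inductive ligand expressed in the renal vesicle, went from 19.9, 20.5 and 40.2 to 1315, 1473 and 11108 (log2 fold change 6.72 ± 0.74 (SE), 5.72 without replicate 3; limma adjusted p = 1.8e-04). *Jag1*, a Notch ligand, went from 1053, 527 and 414 to 11451, 13731 and 3709.7 (3.77 ± 0.50 (SE), 4.35 without replicate 3; limma adjusted p = 5.5e-04). *Fgf8*, the growth factor that keeps the vesicle alive, went from 3.57, 1.46 and 4.47 to 150.1, 93.5 and 248 (5.27 ± 0.68 (SE); limma adjusted p = 4.7e-04). *Cxcr4*, the receptor of the chemokine *Cxcl12* that fell, went from 108, 24.9 and 43.6 to 3031, 2274 and 506 (4.92 ± 0.71 (SE), 5.71 without replicate 3; limma adjusted p = 9.1e-04). In all 4 genes every high CHIR library lay above every no CHIR library.

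A second set of early nephron factors was high in 2 of the 3 high CHIR libraries. *Lhx1*, a LIM factor of the vesicle, was at 291, 123 and 127 with no and 5949, 6706 and 104 with high CHIR (log2 3.27; limma adjusted p = 0.092), and its log2 was 5.24 and past the threshold without replicate 3. *Pax8*, a paired-box factor, was at 1387, 925 and 775 with no and 7800.4, 7498 and 94.4 with high CHIR (log2 0.83; limma adjusted p = 0.69), and 2.94 without replicate 3. *Sim1* (log2 3.74 with and 5.79 without), *Bach2* (2.12 and 3.52) and *Uncx* (-0.15 and 1.46) behaved alike. *Emx2*, a homeobox factor of the urogenital ridge, rose in both fits, by 4.37 with replicate 3 and 6.14 without. In that library *Pax8*, *Lhx1* and *Uncx* were under the lowest no CHIR library.

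Factors that mark parts of the later nephron were mixed. *Pou3f3*, of the distal side, went from 84.4, 43.9 and 45.8 to 878, 1348 and 149 (3.32 ± 0.75 (SE), 4.27 without replicate 3; limma adjusted p = 0.0097). *Irx3* rose by 4.53, *Dach1* by 3.65 and *Ovol1*, an epithelial zinc finger factor, by 3.83. *Hnf4a*, the nuclear receptor of the proximal tubule, was at 58.9, 2.93 and 20.1 with no and 7.84, 0 and 0 with high CHIR (limma adjusted p = 0.12). *Sox9* was at 2140.4, 1519 and 1889 with no and 1043, 1061 and 58.9 with high CHIR (log2 -2.18, -0.80 without replicate 3; limma adjusted p = 0.097). *Cdh6*, a cadherin of the vesicle and proximal tubule, was at 909, 359 and 389 with no and 612, 364 and 312 with high CHIR, groups that overlapped.

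Wnt feedback targets are genes that β-catenin and Tcf factors switch on in many tissues, several of which then damp the pathway. Of 21 tested, 15 (71.4%) rose and 1 (4.76%) fell, beside 6.96% and 8.33% of all genes, with a median of 3.38. Without replicate 3 these were 17 and 1, with a median of 2.48. *Axin2* (chr11:108920349-108950783), a scaffold of the destruction complex, went from 148, 102 and 87.1 to 538, 433 and 3638 (log2 fold change 3.10 ± 0.65 (SE); limma adjusted p = 0.007), and by 2.13 without replicate 3. *Notum*, which strips Wnt proteins of their lipid, went from 0.765, 0 and 2.23 to 133, 72.6 and 5139.8, and *Sp5*, a repressor of Wnt targets, from 0 in each no CHIR library to 141, 87.9 and 1389, at least 989-fold higher (limma adjusted p = 0.0029 and 4.8e-04). *Rnf43* and *Znrf3*, ligases that remove Wnt receptors, went from 3.57, 2.93 and 2.23 to 65, 50.3 and 914 and from 1293, 717 and 799.8 to 3409, 3551 and 4976. *Lef1* went from 196, 48.3 and 65.9 to 3811, 4197 and 9125 (5.93 ± 0.50 (SE); limma adjusted p = 3.8e-05) and *Tcf7* from 152, 111 and 97.2 to 641, 687 and 1524 (2.88 ± 0.32 (SE); limma adjusted p = 1.9e-04). *Lef1* and *Tcf7* rose while *Tcf7l1* fell and *Tcf7l2* was at -0.85 (limma adjusted p = 0.032), under the log2 threshold.

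High CHIR replicate 3 was far above the other high CHIR libraries in most of these feedback genes. *Nkd1*, an inhibitor of Dishevelled, held 344, 267 and 9479 in high CHIR, *Wif1*, which binds Wnt ligands, 546, 388 and 10159, and *Apcdd1*, a membrane inhibitor, 322, 100.5 and 5038. All 3 genes rose in the remaining libraries as well, by 2.15, 3.15 and 3.36 without it. *Bambi*, a decoy BMP receptor, rose by 4.30 with even libraries (218, 96.6 and 118 against 3178, 2869.8 and 2133). Not every member followed. *Lgr5*, the R-spondin receptor, was at 296, 253 and 443 with no and 445, 483 and 307 with high CHIR (log2 0.33; limma adjusted p = 0.45). *Myc* was at 2538, 1771 and 2165 with no and 1156, 1307 and 1884 with high CHIR (log2 -0.59; limma adjusted p = 0.052). *Dkk1*, a secreted inhibitor, was at 2935, 979 and 1595 with no and 4570.2, 5262 and 369 with high CHIR, and passed the thresholds (1.56) without replicate 3. *Fzd7*, a Wnt receptor, fell (log2 -1.17).

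Of 10 Wnt ligands tested, *Wnt4*, *Wnt5b* and *Wnt7a* rose and *Wnt2* fell, with a median of 1.68 (0.58 without replicate 3, with the same counts). *Wnt7a* went from 3.06, 7.32 and 0 to 28, 39.1 and 863 and *Wnt5b* from 102, 89.3 and 60.3 to 251, 158 and 1078, both most in replicate 3. *Wnt6* was at or under 6 normalized counts in every library but high CHIR replicate 3, where it held 551. *Wnt5a* likewise held 2977 there against 119 and 58.6. Among 22 receptors and members of the destruction complex, 2 rose (9.09%) and 3 fell (13.6%), beside 6.96% and 8.33% of all genes, with a median of -0.06. The frizzled receptors accounted for all of these calls. *Fzd10* went from 1.78, 5.85 and 1.12 to 152, 168 and 2176 (6.80 ± 0.93 (SE), 5.55 without replicate 3; limma adjusted p = 6.6e-04), and *Fzd6* from 19.1, 29.3 and 14.5 to 1250.4, 1329 and 1087 (5.85 ± 0.40 (SE); limma adjusted p = 1.3e-05). *Fzd2*, *Fzd7* and *Fzd4* fell (log2 -1.05, -1.17 and -3.29). *Gsk3b*, the kinase that CHIR inhibits, was at 9359.6, 5925 and 8163 with no and 7511, 8418 and 8536 with high CHIR (log2 0.08; limma adjusted p = 0.74), and *Ctnnb1*, which encodes β-catenin, at 3085, 2254 and 2532 with no and 3318, 2928 and 4686 with high CHIR (log2 0.46; limma adjusted p = 0.094). Without replicate 3, *Fzd4* was at -2.26 and *Fzd2* at -0.98, under the log2 threshold.

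In the Notch pathway, *Jag1* and the receptor *Notch1* (1.09) rose, 15.4% of 13 genes tested, and the target *Hes1* fell (7.69%). Of all genes tested, 6.96% rose and 8.33% fell, and the list median was -0.03. *Hes1*, a repressor that Notch signals commonly raise, went from 1021, 1893 and 1151 to 216, 181 and 170.1 (log2 fold change -2.79 ± 0.23 (SE); limma adjusted p = 3.3e-05). *Notch2* was at 4093, 2228 and 3459.5 with no and 1841, 1769.9 and 1499 with high CHIR (log2 -0.90; limma adjusted p = 0.014), and *Hey1*, another target, at 582, 266 and 172 with no and 474, 406 and 464 with high CHIR. *Dll1*, the ligand of the vesicle, was at 181, 82 and 99.4 with no and 111, 149 and 105 with high CHIR, although low CHIR held 377, 461 and 206. By limma, *Heyl* rose only without replicate 3 (2.50 against 1.56 with it). With all libraries its edgeR log2 was 1.92 (edgeR adjusted p = 0.049), and its DESeq2 adjusted p was 0.0063.

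Among 25 genes of Fgf signaling and its ERK feedback, 4 rose (16%) and 7 fell (28%), beside 6.96% and 8.33% of all genes. The list median was -0.02. *Fgf1* went from 2680.0, 2897 and 4179 to 32.5, 50.3 and 7.48 (log2 fold change -7.03 ± 0.61 (SE), -6.27 without replicate 3; limma adjusted p = 4.6e-05) while *Fgf8* rose. *Etv1*, an ETS factor downstream of Fgf receptors, went from 3437, 2729.7 and 2993 to 179, 62.8 and 458 (-4.13 ± 0.53 (SE), -4.83 without replicate 3; limma adjusted p = 4.7e-04). Its relatives *Etv4* and *Etv5* were at 0.14 (limma adjusted p = 0.77) and 0.45 (limma adjusted p = 0.13). *Fgfr1* and *Fgfr3* fell (log2 -1.12 and -1.74), and *Fgfr2*, the receptor of epithelia, rose by 1.06. The ERK phosphatase *Dusp5* fell (log2 -2.47), *Dusp4* rose by 1.24, and *Dusp6* was at 7920.0, 6307 and 9776 with no and 7609, 7916 and 3707 with high CHIR. *Fgf9*, a progenitor ligand, was at 459.8, 483 and 515 with no and 584, 839 and 483 with high CHIR, and both ends lay below low CHIR (2411, 3281 and 2389). Without replicate 3 the list had 4 higher and 5 lower, and *Fgfr1* (-0.76), *Spry1* (-0.76), *Fgf7* and *Dusp4* (1.00) were no longer called.

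In the BMP pathway, 6 of 26 genes rose (23.1%) and 2 fell (7.69%), beside 6.96% and 8.33% of all genes, and the median was 0.03. *Bmp7*, a ligand of NPCs, went from 85.6, 51.2 and 70.4 to 1443, 1978 and 1210.4 (log2 fold change 4.46 ± 0.33 (SE); limma adjusted p = 2.0e-05). *Bmper*, a secreted BMP-binding protein, moved the other way, from 13352, 9246 and 12389 to 128, 90.7 and 451 (-6.04 ± 0.48 (SE), -6.73 without replicate 3; limma adjusted p = 3.0e-05). *Bmpr1b*, a receptor, went from 41.5, 29.3 and 27.9 to 317, 261 and 994 (3.71 ± 0.45 (SE), 3.11 without replicate 3; limma adjusted p = 3.3e-04). *Msx1*, *Msx2* (3.98, 3.30 without replicate 3) and *Id4* (2.90, 3.82 without replicate 3) rose, and *Bmp2* rose by 1.56. *Id1* (9965, 10717 and 7172 against 6379, 5151 and 6037) and *Id3* (57943, 60048 and 46212 against 45761, 36388 and 31318), the usual immediate targets of BMP, were both lower by less than 2-fold (limma adjusted p = 0.02 and 0.032). *Bmp4* was at 620.2, 457 and 617 with no and 363, 212 and 5523 with high CHIR, and passed the thresholds in the downward direction (-1.01) without replicate 3, against a fitted 0.43 with it. The list then had 7 higher and 4 lower.

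Among 29 genes of epithelial junctions and polarity, 13 (44.8%) rose and 1 (3.45%) fell, beside 6.96% and 8.33% of all genes. The list median was 1.5, and 16 rose without replicate 3. The claudins *Cldn6* and *Cldn7*, tight junction proteins, went from 956, 517 and 416 to 8877, 7729 and 1876 and from 943, 568 and 409 to 8639.5, 8537 and 1136 (limma adjusted p = 0.0036 and 0.015). *Ocln* (occludin) went from 83.1, 41 and 34.6 to 585, 561 and 283 (log2 fold change 3.18 ± 0.38 (SE); limma adjusted p = 2.9e-04), and *Marveld2*, of junctions where 3 cells meet, from 80.8, 35.1 and 23.5 to 696, 629.5 and 400.0 (3.75 ± 0.47 (SE); limma adjusted p = 3.9e-04). *Crb3*, an apical polarity protein, went from 97.6, 70.3 and 55.9 to 844, 825 and 214 and *Patj*, its partner, from 298, 174 and 275 to 879.5, 664 and 647. *Dsp*, the desmosome protein, rose by 3.79, and *Epcam*, whose product is an antigen removed at isolation, by 2.38. *Cdh1*, E-cadherin, was at 211, 54.2 and 72.6 with no and 791, 572 and 104 with high CHIR (log2 1.93; limma adjusted p = 0.095), and rose by 2.83 without replicate 3. *Cldn1* fell (log2 -2.41, -1.75 without replicate 3). *Tjp1*, a junction scaffold, was at a log2 of -0.29 and *Pard3* at -0.16 (limma adjusted p = 0.27 and 0.56).

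Of 10 keratins, *Krt23*, *Krt39* and *Krt18* (1.31) rose and 0 fell, with a median of 0.66, and *Krt8*, the usual partner of *Krt18*, was at 731, 527 and 335 with no and 594, 470.4 and 315 with high CHIR. *Krt18* (1.20) was no longer called without replicate 3, which left 2. *Krt5*, of basal epithelia, was at 2357 in high CHIR replicate 3 and at or under 15 elsewhere. Of 14 mesenchymal genes, 7 fell (50.0%) and 1 rose (7.14%), beside 8.33% and 6.96% of all genes, with a median of -1.55. *Snai2*, a repressor of epithelial genes, went from 6300.4, 6237 and 4885 to 271, 128 and 449 (log2 fold change -4.52 ± 0.37 (SE); limma adjusted p = 3.4e-05). *Zeb1* and *Zeb2*, of the same kind, fell (log2 -2.56 and -1.92), and so did the cadherin *Cdh11* (-2.21). The intermediate filament *Vim* went from 23421, 26621 and 33056 to 7999, 6474 and 5690.3 (log2 -2.04). *Cdh2*, N-cadherin, was at 5857, 4534 and 5906 with no and 3349, 3195 and 4969.7 with high CHIR (log2 -0.52; limma adjusted p = 0.073). *Thy1* rose by 1.72. These calls kept their counts of 7 and 1 without replicate 3.

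Matrix and guidance genes moved both ways, as did the genes tested as a whole, of which 6.96% rose and 8.33% fell. Whether these lists differed from all genes was not tested. Of 23 basement membrane genes, 3 rose and 4 fell: *Frem2* went from 267, 158 and 156 to 2167, 1894 and 3684 and *Col18a1* from 854, 322 and 356 to 4277, 3102 and 6293, while *Nid2* went from 6768, 2721 and 4655 to 396, 402 and 269 and *Frem1*, a relative of *Frem2*, from 637, 609 and 478 to 150.1, 41.9 and 52.3 (limma adjusted p = 7.4e-05, 9.2e-04, 3.0e-05 and 4.5e-04). The laminin chain *Lamb1* rose by 1.51, and the chain *Lama2* and the linker *Nid1* fell (log2 -2.84 and -2.30). The list median was 0.18, and 5 rose and 4 fell without replicate 3. Of 18 metalloproteases and inhibitors, 4 rose and 4 fell, with a median of 0.39, and without replicate 3 these were 5 and 4. *Adamts9* went from 148, 116 and 126 to 1141, 995 and 861 and *Mmp2*, a gelatinase, from 14133, 8735 and 11384 to 3747, 2480.4 and 2407 (limma adjusted p = 2.5e-05 and 1.2e-04). Of 37 axon guidance genes, 11 rose and 6 fell, with a median of -0.16, and without replicate 3 these were 11 and 9. The receptors *Robo1* and *Robo2* of the Slit ligands parted: *Robo1* went from 1131, 672 and 679 to 5166, 5077 and 4093 (2.57 ± 0.22 (SE); limma adjusted p = 4.3e-05) and *Robo2* from 5817, 5135 and 5832 to 273, 268 and 3467 (-3.14 ± 0.78 (SE), -4.36 without replicate 3; limma adjusted p = 0.016). *Slit2*, whose product signals through them, rose by 1.28, *Slit1* by 3.89, and *Slit3* fell (log2 -2.48, -3.21 without replicate 3). *Epha4*, an ephrin receptor, rose by 2.97 and *Sema6a*, a semaphorin, by 3.88.

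The 4 *Hox* clusters are given one by one, and the differences between them were not tested. Of 7 *Hoxc* genes tested (chr15:102954427-103036852), 6 fell and 0 rose, with a median of -2.84. Of 8 *Hoxb* genes (chr11:96271457-96354012), 4 rose and 0 fell, with a median of 1.13. Of 9 *Hoxa* genes limma called 0 (at an unadjusted p under 0.05 and the same log2 threshold 2, *Hoxa3* and *Hoxa7*, and with edgeR 1, *Hoxa7*), and of 7 *Hoxd* genes 1 rose. In all, 5 of 31 rose and 6 fell, beside 6.96% and 8.33% of all genes tested. Without replicate 3, 7 rose and 8 fell over the 4 clusters together. High CHIR replicate 3 was at least 2-fold lower than both other high CHIR libraries at 14 of the 31 (45.2%). It was as much higher at 1 (3.23%), beside 7.67% and 6.04% of all genes tested.

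*Hoxc10* went from 6862, 6954 and 6686 to 2086, 2143 and 791 (log2 fold change -2.16 ± 0.31 (SE); limma adjusted p = 9.0e-04), *Hoxc6* from 471, 354 and 423 to 69.5, 53 and 49.5 (-2.84 ± 0.20 (SE); limma adjusted p = 1.4e-05) and *Hoxc5* from 182, 205 and 237 to 16.8, 29.3 and 27.1 (-3.07 ± 0.26 (SE); limma adjusted p = 3.8e-05). In low CHIR *Hoxc10* held 7135, 8180.4 and 7138 and *Hoxc6* 645, 665 and 588, both above the no CHIR libraries. *Hoxb2* went from 22.2, 5.85 and 26.8 to 244, 187 and 219 (3.72 ± 0.49 (SE); limma adjusted p = 5.2e-04), and *Hoxb6*, *Hoxb7* and *Hoxb8* rose by 1.05, 1.33 and 1.22. *Hoxd8* went from 511, 468 and 565 to 1342, 1475 and 1918 (1.60 ± 0.19 (SE); limma adjusted p = 3.1e-04). *Hoxa7* was at 484, 477 and 467 with no and 2192, 2119 and 372 with high CHIR, and rose by 2.18 without replicate 3. Neighbouring *Hox* genes overlap and have antisense partners, whose reads cannot be told apart where strand was not recorded.

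**Figure D4:**
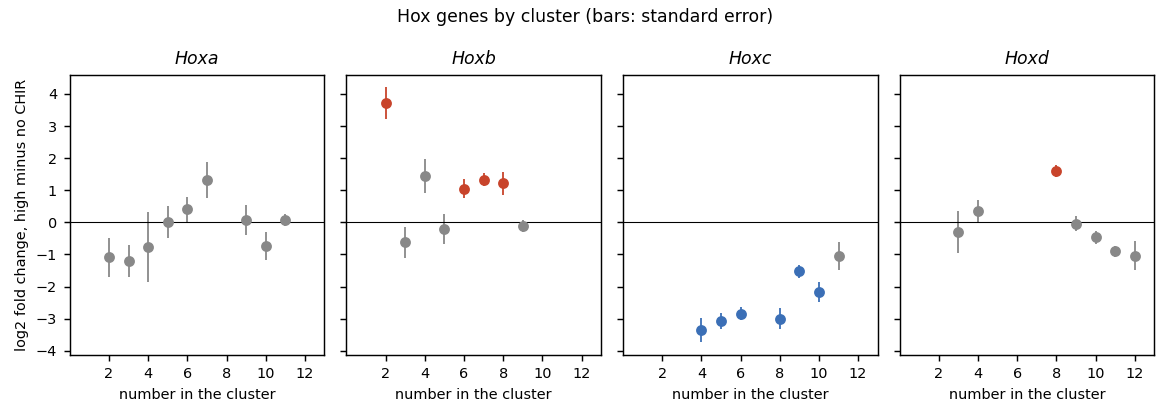
Log2 fold change, high minus no CHIR (vertical, bars are the standard error), of the 31 *Hox* genes tested, by cluster and by number in the cluster (horizontal). Red points rose, blue points fell and grey points were not called: 6 of 7 *Hoxc* genes are blue and 4 of 8 *Hoxb* genes red.

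Few cell cycle genes were called between no and high CHIR. Those that rose were 2.33% of the S-phase and 3.70% of the G2-M list, and of all genes tested 6.96% rose and 8.33% fell. Of 43 S-phase genes 1 rose (*Polr1b*) and 0 fell, with a median of -0.06, and of 54 G2-M genes 2 rose (*Lbr* and *Gas2l3*) and 0 fell, with a median of -0.19. Without replicate 3, none of these 3 was called, 2 others of each list rose and the medians were 0.27 and 0.39, beside 0.03 for all genes tested. *Cdk1*, the kinase of mitosis, was at 3773, 4395 and 3873 with no and 4307, 5126 and 1410.4 with high CHIR (limma adjusted p = 0.55), and *Top2a*, which untangles DNA, at 7472, 5981 and 7069.9 with no and 9256, 10495 and 2692 with high CHIR (limma adjusted p = 0.9). In each, replicate 3 was below all no CHIR libraries and the other 2 high CHIR libraries were not. Replicate 3 was below all no CHIR libraries at 48 of the 54 G2-M and 31 of the 43 S-phase genes. The other 2 high CHIR libraries were both above all no CHIR libraries at 32 and 16. Over all 17411 genes tested, the first was so at 6316 and the second at 4572. Both ends of *Cdk1* and *Top2a* lay under low CHIR, which held 5431, 6403 and 5995 for *Cdk1* and 11803, 12149 and 14430.5 for *Top2a*.

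Of 18 G1 cyclins and inhibitors, 3 rose (16.7%) and 2 fell (11.1%), beside 6.96% and 8.33% of all genes. The list median was 0.18, and without replicate 3 the counts were 3 and 3. The D cyclins parted: *Ccnd1* went from 2129, 915 and 1080.2 to 4628, 5035 and 3691, *Ccnd2* from 8909.8, 4954 and 6992 to 15359, 12091 and 40103 and *Ccnd3* from 3948, 2298 and 3763 to 1522, 1179 and 1273 (limma adjusted p = 0.0049, 0.015 and 0.0013). *Cdkn2c*, an inhibitor of Cdk4 and Cdk6, went from 36.2, 22 and 25.7 to 4.48, 5.58 and 0.935. In the Myc network, *Mycl* rose and the antagonists *Mxd3* and *Mxd4* fell, 3 of 11 with a list median of -0.23, and *Mycn*, at 565, 656 and 544 with no and 398, 412 and 754 with high CHIR, lay below low CHIR (2137, 2127 and 1940.2) at both ends. Of 20 p53 targets, *Phlda3* (1.38) and *Perp* (1.29) rose (10.0%) and *Fas* (-2.61) fell (5.00%), near the 6.96% and 8.33% of all genes, with a median of 0.37 (3 and 1 without replicate 3). *Mdm2*, which degrades p53, was at 1361, 859 and 1155 with no and 1699.7, 1223 and 1808 with high CHIR. Of 20 interferon response genes, *Mx1* rose, from 0, 0 and 2.23 to 86.3, 51.6 and 208, and 4 fell, among them *Ifi27*, from 1719.8, 1879 and 1642 to 343, 163 and 308 (limma adjusted p = 4.0e-04 and 5.3e-05). The median of that list was -0.21, and without replicate 3, 2 rose and 3 fell.

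Of 23 genes of glycolysis, 6 (26.1%) rose, beside 6.96% of all genes, and 0 fell. In this list 21 had a log2 fold change above 0, as had 8956 of the 17411 genes tested. The median of the list was 0.65, and without replicate 3 it was 0.45, with 5 genes that rose. *Hk2*, the hexokinase that is often induced, went from 633, 717 and 936 to 2713, 2475 and 3870.5 (log2 fold change 1.98 ± 0.20 (SE); limma adjusted p = 1.2e-04). *Pfkfb3*, which raises flux through phosphofructokinase, went from 55.8, 39.5 and 51.4 to 221, 222 and 312 (2.33 ± 0.34 (SE); limma adjusted p = 9.0e-04) and *Slc2a3*, a glucose carrier, from 40.0, 17.6 and 32.4 to 215, 139.6 and 331 (2.88 ± 0.47 (SE); limma adjusted p = 0.0019). *Gapdh* was at 16605, 15717 and 16272 with no and 28034, 29103 and 27700.0 with high CHIR (0.80 ± 0.13 (SE); limma adjusted p = 0.002), under the log2 threshold with groups that did not overlap. *Ldha* was at 17369.9, 18089 and 18443 with no and 10310.1, 18591 and 23493 with high CHIR, with overlap. Of 25 genes of cholesterol synthesis, 1 rose and 0 fell, with a median of 0.11, and these counts were the same without replicate 3.

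Of 14 genes of growth timing, 3 rose (21.4%) and 2 fell (14.3%), beside 6.96% and 8.33% of all genes, with a median of 0.03. *Hmga1*, a chromatin protein, went from 2360.1, 2687 and 2774 to 7933, 8859 and 7314 (log2 fold change 1.62 ± 0.18 (SE); limma adjusted p = 2.2e-04) and *Igf2bp3*, an RNA-binding protein, from 762, 850.4 and 942 to 1572, 1724 and 1975 (1.04 ± 0.14 (SE); limma adjusted p = 5.1e-04). *Igfbp5*, which binds insulin-like growth factors, fell (log2 -1.51). Without replicate 3, *Igf2bp3* (0.96) was under the log2 threshold and 2 rose. Of 19 immediate early genes, 6 rose (31.6%) and 2 fell (10.5%), with a median of 0.90. *Jun* went from 764, 237 and 526 to 2353, 1854 and 2762 (2.32 ± 0.35 (SE); limma adjusted p = 0.0011) and *Klf4* from 22.7, 4.39 and 11.2 to 80.7, 93.5 and 99.1 (2.99 ± 0.54 (SE); limma adjusted p = 0.0031), while *Fos* was at 315, 323 and 514 with no and 575, 392 and 331 with high CHIR. *Klf6* and *Ccn1*, a target of the Hippo pathway, fell (log2 -1.15 and -1.25).

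**Figure D5:**
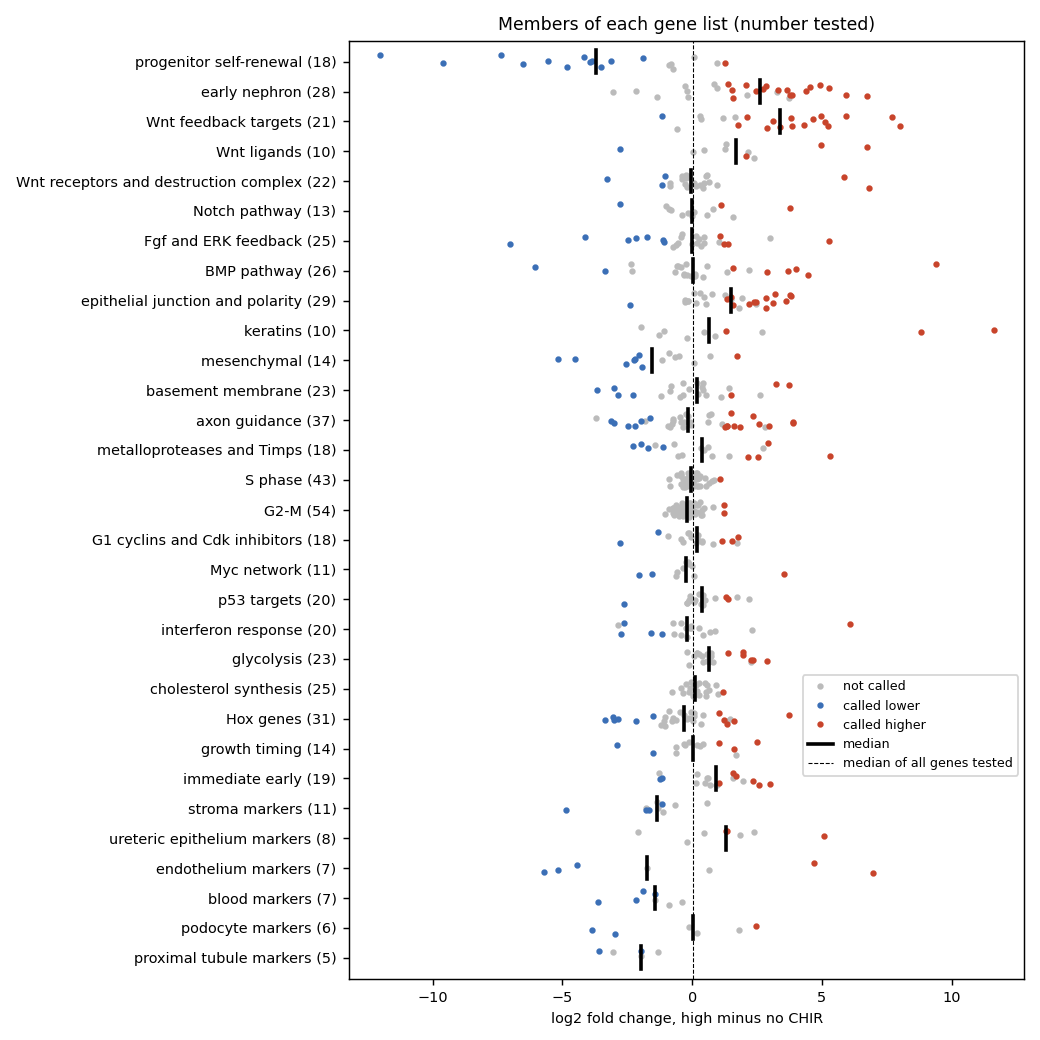
Log2 fold change, high minus no CHIR (horizontal), of each tested member of the 31 gene lists (number tested in brackets). Red members rose, blue fell, grey were not called, black bars are list medians and the dashed line is the median of all genes tested (0.02), and the self-renewal median lies at -3.69 and the Wnt feedback median at 3.38.

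Markers of other cell types were measured in the same libraries. Each list is short, and its counts stand beside 6.96% of all genes tested that rose and 8.33% that fell. The list medians were -1.36 for stroma, 1.32 for ureteric epithelium, -1.72 for endothelium, -1.43 for blood, 0.04 for podocytes and -1.97 for proximal tubule. The stroma list summed to between 16474 and 41795 normalized counts with no CHIR and between 5925 and 16333 in high CHIR, and 4 of 11 fell (*Tcf21*, *Foxd1*, *Meis1* and *Dcn*). *Tcf21* went from 7968, 7883 and 6721 to 598, 442 and 63.6 (-4.86 ± 0.64 (SE), -3.86 without replicate 3; limma adjusted p = 5.4e-04), and the collagen *Col1a1* was at 18643, 4290.0 and 11599.5 with no and 7979.6, 2293 and 4834 with high CHIR (limma adjusted p = 0.15). *Foxd1*, which defines the stromal progenitor, was at 40.3, 17.6 and 30.2 with no and 11.2, 9.77 and 4.67 with high CHIR. The number that fell was 1 without replicate 3, with DESeq2 7 and with the replicate number as a block 8. Without replicate 3, *Foxd1* was at a log2 of -1.33 (-1.67 with it), *Dcn* at -1.54 (-1.76) and *Meis1* at -0.85 (-1.15). The part of stromal cells in the fall of the mesenchymal genes was not tested.

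The ureteric epithelium list summed to between 3618 and 5868 with no CHIR and between 7518 and 12022 in high CHIR. In it 3 of 8 rose (37.5%, beside 6.96% of all genes), *Gata3*, *Hoxb7* (1.33) and *Krt18* (1.31), and 2 without replicate 3. A log2 fold change above 0 was found in 6 of the 8, and 0 fell. *Wnt11* was at 15.5, 2.93 and 7.82 with no and 42.6, 34.9 and 49.5 with high CHIR (log2 2.37; limma adjusted p = 0.083). *Gata3*, a factor also of the distal nephron, went from 107, 51.2 and 51.4 to 4283, 4098 and 623 (5.06 ± 0.65 (SE), 5.98 without replicate 3; limma adjusted p = 4.6e-04). The defining receptor *Ret* was at 1.02, 7.32 and 1.12 with no and 4.48, 2.79 and 3.74 with high CHIR, and the uroplakin *Upk1b* at 9.43, 0 and 16.8 with no and 1.12, 2.79 and 0 with high CHIR. Both held too few counts to be tested. Of 7 endothelial markers, *Tek* and *Flt1* rose and *Emcn*, *Plvap* and *Cldn5* fell, and without replicate 3, 1 rose and 4 fell. *Tek*, an angiopoietin receptor, was at 2.29, 0 and 0 with no and 769, 586 and 13.1 with high CHIR, while the defining markers *Cdh5* (6.72, 0 and 0 in high CHIR) and *Tie1* (0 in all high CHIR libraries) were near 0. The endothelial sum lay between 763 and 826 with no CHIR and between 699 and 1426 in high CHIR.

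The blood list summed to between 1065 and 1381 with no CHIR and between 275 and 408 in high CHIR. In it 4 of 7 fell (57.1%), beside 8.33% of all genes. *Lyz2*, a lysozyme of myeloid cells, fell (785, 1058 and 1152 against 176, 262 and 226; log2 fold change -2.17 ± 0.20 (SE); limma adjusted p = 7.2e-05). Without replicate 3, 3 fell. The pan-leukocyte *Ptprc* was at 16.6, 11.7 and 6.7 with no and 0, 8.38 and 8.41 with high CHIR. Of 6 podocyte markers, 1 rose and 2 fell (*Wt1* and *Synpo*), and 3 fell without replicate 3. *Nphs1*, which defines podocytes, was at 39.8, 93.7 and 52.5 with no and 48.2, 90.7 and 68.2 with high CHIR, and the list summed to between 1918 and 2804 with no CHIR and between 845 and 5548 in high CHIR, the highest from *Cdkn1c* in replicate 3. Of 5 proximal tubule markers, *Slc34a1* and *Cubn* fell (1 without replicate 3), and the list summed to between 93.7 and 296 with no CHIR and between 32.1 and 77.3 in high CHIR.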

How the data were processed

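RNA was measured by bulk RNA-seq in 9 wild-type libraries (3 each of no, low and high CHIR) of the 36 in the series. The authors sequenced paired ends from a SMARTer Ultra Low preparation, which does not mark strand. Per the labels, reads were processed with STAR 2.5.1a1 and featureCounts 1.4.6-p52 and normalized with DESeq2 size factors. The deposited signal values are such normalized counts for 25760 genes with at least 10 reads in total, given by Ensembl ID, and 25723 matched a symbol in GENCODE annotation of GRCm38. Each value divided by the value of 1 read in its library gave a whole number for all genes within 0.01. These reads were used for the count tests and depths.

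Genes averaging 10 or more over the 9 libraries entered a limma 3.58.1 model (R 4.3.3) of log2(normalized count + 1) that had a mean for each CHIR group, a variance trend and Benjamini-Hochberg adjustment over all genes tested. Standard errors are those of limma. edgeR 4.0.16 (quasi-likelihood test) and DESeq2 1.42.0 on the recovered reads, other scalings, filters and pseudocounts, the replicate number as a block and each library left out were alternatives. The code was tested on simulated data. Intervals of ratios from 1 to 3 reads are 95% exact binomial intervals, and these and floors of 3 reads cover counting error only.

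Named genes were members of the 31 gene lists, the 12 largest log2 rises and 12 largest falls among called genes with a mean of at least 50 and no overlap between groups, the 8 largest rises and 8 largest falls in counts, and the 8 genes highest and 8 lowest in high CHIR replicate 3. *T* was chosen after its values were seen. The members and lists were chosen with earlier results of these data known. The authors' tables of their own comparisons, which hold fold changes and p-values, were not used, nor were 77 columns of per-sample values in tables of other experiments. Replicate numbers were not treated as pairs. Promoter sequences are from RefSeq (GRCm38.p6), matched by symbol. A few members of the lists are counted but not reported here by name.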

Additional observations from a re-analysis of the deposited data

How the results depend on the processing

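Under the alternatives run, none of the genes called in one direction was called in the other. Asking for a log2 of 0.5 in place of 1 gave 1983 genes higher, and asking for a log2 of 2 gave 597 higher and 740 lower. With each library left out in turn, the genes higher ranged from 964 to 1322 and those lower from 1028 to 1568. All other settings (edgeR, DESeq2, the 6 compared libraries alone, TMM scaling or scaling by total counts, pseudocounts of 0.5 and 5, no filter, a mean of at least 50, no variance trend) stayed within 1.5 times of the counts over all genes. Counts within lists moved more in places: stroma markers lower were 7 with DESeq2 and 8 with the block against 4, p53 targets higher 4 with edgeR and DESeq2 against 2, basement membrane higher 5 with edgeR and 6 with DESeq2 and the block against 3, axon guidance lower 3 with edgeR and 4 with DESeq2 against 6, and *Hox* genes higher 3 after scaling by total counts against 5. With libraries left out in turn, 13 of the genes that could be named had, without high CHIR replicate 3, a log2 fold change of the opposite sign that passed the adjusted p. That value came highest in the range for *Ube2c* (-0.61 to 0.46), *Top2a* (-0.45 to 0.53), *Ndc80* (-0.59 to 0.62), *Tpx2* (-0.53 to 0.49), *Cdca8* (-0.65 to 0.42), *Tacc3* (-0.44 to 0.58), *Cdc25c* (-0.44 to 0.65), *Cenpe* (-0.37 to 0.53), *Uncx* (-1.13 to 1.46), *Sema3f* (-1.38 to 0.50) and *Efna5* (-0.75 to 0.65). It came lowest for *Bmp4* (-1.01 to 1.34) and *Mixl1* (-2.05 to 3.79). The cause was not tested. Of the lists with 0 members called by limma in a direction, early nephron had 3 lower when p was left unadjusted (*Sox9*, *Osr2* and *Hnf4a*; 0 by edgeR and DESeq2) and keratins 2 (*Krt7* and *Krt20*; 0 by edgeR and 1 by DESeq2), and the other 8 had 0 by all 3. With the replicate number as a block, 1291 genes rose and 1514 fell, of which 1192 and 1403 were the same genes as without it. Deviations of same-numbered no and high CHIR libraries correlated at 0.272, 0.246 and 0.0717, each library best with its own number. Deviations from a group mean cancel within the group, so these matches depend on one another. They are at most a hint from the data and not part of the design. The smallest library held 13651129 reads on genes, so genes near 10 normalized counts rest on few reads and their fold changes are the least precise.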
